A study of Mus musculus with 6 samples.

Results

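Collagen VI is built from chains encoded in the mouse by 6 genes, Col6a1, Col6a2, Col6a3, Col6a4, Col6a5 and Col6a6. All 6 were found by their gene symbols among the 49548 genes of a 3′ mRNA sequencing series of colonic adenoma fibroblasts, and 5 of them, all but Col6a6, had at least 1 normalized count and were tested with 26402 genes in all. The 6 libraries came from C57/BL6 mice that carried Col6a1-cre together with the Rosa26-mTmG reporter and had developed colitis-associated tumors under azoxymethane and dextran sulfate sodium (AOM/DSS). In these animals the membrane-bound Tomato of the reporter is replaced by GFP in cells in which Col6a1-cre has been active. Adenoma cells lacking CD45, EpCAM, CD31 and Ter119 on their surface were sorted into GFP+ cells, called Col6a1+ cancer-associated fibroblasts (CAFs), and Tomato+ cells, called Col6a1− CAFs, with 3 libraries each. Both groups therefore carried the same alleles, apart from the recombined reporter, and the same treatment, each library was made from pooled tumors, and neither an untreated colon nor mice without the Cre entered the comparison.

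Collagen VI forms beaded filaments in the pericellular matrix, where it links cells and basement membranes to the fibrillar interstitium. The chains encoded by Col6a1 and Col6a2 combine with a long chain, most often that of Col6a3, and the products of Col6a4, Col6a5 and Col6a6 are related long chains that can take the place of the Col6a3 product. Fibroblasts and mural cells are known sources of the protein, and in tumors a fragment released from the C-terminal end of the Col6a3 chain, endotrophin, has been studied as a signal. The sort leaned on regulatory sequence of Col6a1 through the Cre, which marks cells by their history as well as by their present state, so the Col6a1 difference serves as a check of the labels and not as a result independent of the sort. The question put to the data was how the partner chains, which the sort did not use, followed Col6a1.

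The chain genes lie in 3 places of the mm10 genome, all on the minus strand. Col6a2 (ENSMUSG00000020241, chr10:76595762-76623630) and Col6a1 (ENSMUSG00000001119, chr10:76708792-76726168) are neighbours separated by 85.2 kb. Col6a3 (ENSMUSG00000048126, chr1:90765923-90843971) stands alone. Col6a6 (ENSMUSG00000043719, chr9:105687809-105828160), Col6a5 (ENSMUSG00000091345, chr9:105856078-105960643) and Col6a4 (ENSMUSG00000032572, chr9:105989454-106096783) follow one another on chromosome 9 with gaps of 27.9 and 28.8 kb. In GENCODE, the largest number of exons in a transcript was 35 for Col6a1, 28 for Col6a2, 44 for Col6a3, 38 for Col6a4, 41 for Col6a5 and 37 for Col6a6. Reads of a 3′ kit come from near the poly(A) end, and none of the 30-base words in the last 500 bases of the chains' coding transcripts occurred in a transcript of another gene on either strand.

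RefSeq promoters on GRCm38.p6, the assembly that mm10 names, were matched for all 6 chains, and the 250 bases before each RefSeq start were searched. The bases that also precede the outermost GENCODE start are shown for Col6a1, Col6a2, Col6a3 and Col6a4, the chains that were higher together in Col6a1+ CAFs, written 5′ to 3′ on the minus strand, with capitals for matches to the motifs.
Col6a1, chr10:76726169-76726294: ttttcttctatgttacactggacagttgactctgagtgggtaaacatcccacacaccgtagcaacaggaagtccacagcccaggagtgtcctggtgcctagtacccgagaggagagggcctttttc
Col6a2, chr10:76623631-76623880: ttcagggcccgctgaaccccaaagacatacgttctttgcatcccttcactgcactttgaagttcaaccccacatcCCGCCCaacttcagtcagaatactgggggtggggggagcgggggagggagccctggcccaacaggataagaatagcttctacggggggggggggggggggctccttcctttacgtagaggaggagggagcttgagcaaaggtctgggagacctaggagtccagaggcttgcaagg
Col6a3, chr1:90843972-90844221: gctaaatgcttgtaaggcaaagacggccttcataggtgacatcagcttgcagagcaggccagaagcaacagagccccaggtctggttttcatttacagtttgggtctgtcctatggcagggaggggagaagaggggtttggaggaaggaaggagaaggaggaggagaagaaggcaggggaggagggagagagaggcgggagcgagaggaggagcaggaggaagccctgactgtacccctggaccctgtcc
Col6a4, chr9:106096784-106096941: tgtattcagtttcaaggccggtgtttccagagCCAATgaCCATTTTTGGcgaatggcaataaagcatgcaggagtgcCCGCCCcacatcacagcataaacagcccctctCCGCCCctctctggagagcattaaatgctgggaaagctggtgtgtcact
Searched on both strands were the GC box GGGCGG, the CCAAT box, the TATA box as TATAAA, the AP-1 site as TGANTCA and the CArG box bound by serum response factor. Col6a4 held 1 CArG box, CCATTTTTGG, from 211 to 202 bases before its RefSeq start, a motif in 1.47% of the 32851 promoter windows of the same length, with 1 CCAAT box (33.8% of windows) and 2 GC boxes (32.7%). Col6a1 held 1 AP-1 site, TGACTCA (6.75% of windows), from 90 to 84 bases before its RefSeq start; the site lies past the outermost GENCODE start, in a stretch of 124 bases that is not shown. Col6a2 held 1 GC box in the window shown, which precedes the outer of its RefSeq starts, and 3 before the inner start. Col6a3 held none of the 5 motifs, and no chain's window held TATAAA (12.4% of windows). No motif was present in the windows of all 4 chains. These are matches of letters and carry no evidence of binding.

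Col6a1, Col6a2, Col6a3 and Col6a4 were higher in Col6a1+ CAFs, by 5.92- to 8.68-fold, and in each of the 4 the lowest Col6a1+ value exceeded the highest Col6a1− value. Col6a5 was low in both groups and did not pass the test, and Col6a6 was listed at 0 throughout. Of all 26402 genes tested, 2.66% were higher in Col6a1+ CAFs at an adjusted p under 0.05, and 7.91% had groups apart in that direction. Values below are read counts as normalized by the authors, and fold changes are on the scale of log2(normalized count + 1), Col6a1+ minus Col6a1−, from limma across all genes. The p-values set each difference against the spread between these libraries, estimated in part from other genes. The libraries are pools, so the spread between single mice was not measured.

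Col6a1, whose regulatory sequence drives the Cre, had 861, 1287 and 1941 normalized counts in replicates 1, 2 and 3 of the Col6a1+ CAFs and 182, 321 and 102 in those of the Col6a1− CAFs. The groups did not overlap, but Col6a1 transcripts were not absent from the Tomato+ cells, whose highest library stood at 321. The log2 fold change was 2.82 (SE 0.44, 95% interval 1.84 to 3.80), with a limma adjusted p of 0.00613.

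Col6a2, which encodes the other short chain, had 2688, 2448 and 5680 normalized counts in the Col6a1+ CAFs and 508, 650 and 254 in the Col6a1− CAFs. Replicate 3 of the Col6a1+ CAFs held more counts than replicates 1 and 2 together. The log2 fold change was 2.93 (SE 0.42, 95% interval 2.00 to 3.87), with a limma adjusted p of 0.00412.

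Col6a3, the usual long chain and the source of endotrophin, was the most abundant chain, with 6233, 6614 and 10317 normalized counts in the Col6a1+ CAFs and 885, 1343 and 545 in the Col6a1− CAFs. Its lowest Col6a1+ library was several times its highest Col6a1− library. The log2 fold change was 3.12 (SE 0.37, 95% interval 2.31 to 3.93), with a limma adjusted p of 0.00173.

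Col6a4, an alternative long chain, had 610, 722 and 594 normalized counts in the Col6a1+ CAFs and 122, 115 and 88 in the Col6a1− CAFs. It was the least variable chain within both groups, relative to its mean, with 642 ± 69.7 normalized counts for Col6a1+ and 108 ± 18.0 for Col6a1− CAFs (SD, n = 3 each). The log2 fold change was 2.56 (SE 0.30, 95% interval 1.90 to 3.22), with a limma adjusted p of 0.00167.

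Col6a5, another alternative long chain, had 45, 56 and 31 normalized counts in the Col6a1+ CAFs and 8, 50 and 15 in the Col6a1− CAFs. The groups overlapped, because the second Col6a1− library exceeded 2 of the 3 Col6a1+ libraries. The log2 fold change of 1.17 had an SE of 0.72 and a 95% interval of -0.43 to 2.77 (limma adjusted p = 0.484), which leaves room for no difference as well as for one as large as in Col6a4. It was 0.62 without the first and 1.87 without the second Col6a1− library, at the ends of its range when 1 library was left out. Col6a6 was at 0 normalized counts in each of the 6 libraries, a value that allows up to about 3 counts per library for counting error, so no fold change was formed.

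**Figure D1:**
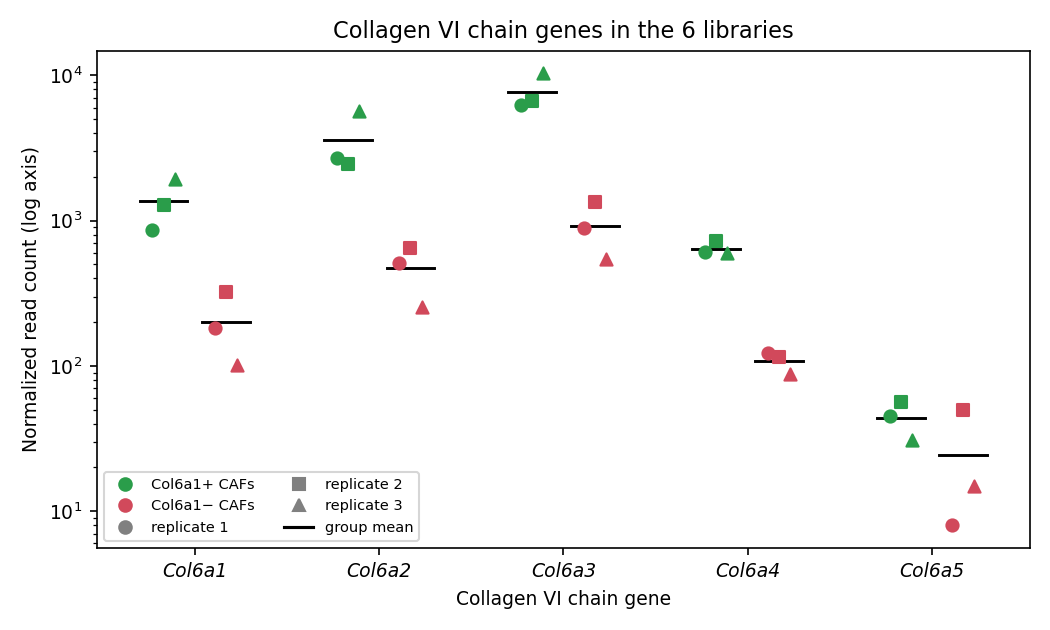
Normalized read counts on a log axis for the 5 chain genes with counts, in green for the 3 Col6a1+ libraries and in red for the 3 Col6a1− libraries, with replicate 1 as circles, replicate 2 as squares, replicate 3 as triangles and black lines for the group means. The groups are apart for Col6a1, Col6a2, Col6a3 and Col6a4 and overlap for Col6a5, where values run from 31 to 56 and from 8 to 50; Col6a6, at 0 in all 6 libraries, is not drawn.

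The calls rested on 3 libraries a group and on how the spread was estimated. Blocking on the replicate number left none of the 26402 genes past the threshold (4418 had an unadjusted p under 0.05 in limma), and the limma adjusted p was 0.0983 for Col6a1, 0.105 for Col6a2, 0.0680 for Col6a3 and 0.0612 for Col6a4; when the blocked fit was limited to the 13515 genes that averaged 10 or more normalized counts, all 4 passed, between 0.00189 and 0.00608, where 7.26% of genes were higher in Col6a1+ CAFs. Without the first Col6a1− library none of the 4 passed (0.0503 to 0.106), while their log2 fold changes stayed between 2.66 and 3.13. That fit called few genes of any kind, 11 higher and 1 lower in Col6a1+ CAFs of 25839 tested. Over 14 alternatives the adjusted p ran from 0.000989 to 0.106 for Col6a1, from 0.00104 to 0.105 for Col6a2, from 0.000318 to 0.0780 for Col6a3 and from 0.000284 to 0.0612 for Col6a4, and over 13 it ran from 0.273 to 0.660 for Col6a5.

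Within the groups, Col6a1, Col6a2 and Col6a3 had their highest value in the same libraries. Replicate 3 was the highest of the Col6a1+ libraries in each of the 3 genes, and replicate 2 was the highest of the Col6a1− libraries. Col6a4 differed from them, being lowest in replicate 3 of the Col6a1+ CAFs and highest in replicate 1 of the Col6a1− CAFs. Replicate 3 was the lowest Col6a1− library for all 4. Together the chains made up 0.315%, 0.351% and 0.542% of all normalized counts in the Col6a1+ libraries and 0.0561%, 0.0755% and 0.0311% in the Col6a1− libraries. Summed over the chains, the level was 13376 ± 4506 normalized counts for the Col6a1+ group against 1729 ± 738 for the Col6a1− group (SD, n = 3 each), a ratio of 7.73.

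Levels of the chains were set side by side on a per-length scale, for which the deposited per-base values (normalized counts divided by a gene-model length) were scaled to 1000 bases, and as plain counts. The length in the deposited values was 3275 bases for Col6a1, 5976 for Col6a2, 8256 for Col6a3, 4063 for Col6a4 and 5002 for Col6a5, against 4100, 4653, 10106, 7371 and 9289 bases for their longest coding transcripts in GENCODE; how it was defined is not given in the sources used here. In Col6a1+ CAFs, Col6a3 had 935 ± 273 normalized counts per 1000 bases, Col6a2 603 ± 301, Col6a1 416 ± 166, Col6a4 158 ± 17.2 and Col6a5 8.80 ± 2.50 (SD, n = 3 each). In Col6a1− CAFs the values were 112 ± 48.5 for Col6a3, 78.8 ± 33.6 for Col6a2, 61.6 ± 33.8 for Col6a1, 26.7 ± 4.42 for Col6a4 and 4.86 ± 4.50 for Col6a5. The order Col6a3, Col6a2, Col6a1, Col6a4, Col6a5 was the same in all 6 libraries, per base and as plain counts. The mean ± SD ranges of neighbours overlapped among Col6a3, Col6a2 and Col6a1 in both groups, so the order of these 3 rests on its repetition in each library. Since a 3′ kit yields reads from the end of a transcript whatever its length, dividing by length lowers the value of Col6a3, the chain with the largest length, and it led on both scales.

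The make-up of the chain pool gave no difference between the groups that passed a test, either as plain counts or per base. As plain counts, Col6a3 made up 59.7%, 59.4% and 55.6% of the chains' total in the Col6a1+ libraries and 51.9%, 54.2% and 54.3% in the Col6a1− libraries, without overlap (exact two-sided permutation test p = 0.1; 0.5 after Benjamini-Hochberg adjustment over 5 chains). On that scale Col6a2 made up 26.1% ± 4.31 against 27.1% ± 2.37, Col6a1 10.1% ± 1.69 against 11.3% ± 1.48, Col6a4 5.18% ± 1.74 against 6.85% ± 2.08 and Col6a5 0.367% ± 0.177 against 1.33% ± 0.787 for Col6a1+ against Col6a1− libraries (SD, n = 3 each; exact permutation p from 0.2 to 0.9). The plain counts gave Col6a3 a larger share than the per-base values in every library. Per base, Col6a3 made up 46.4%, 44.7% and 42.4% of the total in the Col6a1+ libraries and 38.4%, 39.9% and 40.2% in the Col6a1− libraries, which did not overlap (exact two-sided permutation test p = 0.1, the smallest that 3 against 3 libraries can give; 0.5 after Benjamini-Hochberg adjustment over 5 chains). Col6a2 made up 27.6% ± 4.71 against 27.7% ± 2.43, Col6a1 19.4% ± 2.95 against 21.0% ± 2.71 and Col6a4 8.04% ± 2.68 against 10.3% ± 3.14 for Col6a1+ against Col6a1− libraries (SD, n = 3 each; exact permutation p of 1, 0.6 and 0.4). Col6a5 made up 0.463% ± 0.221 of the total for Col6a1+ and 1.62% ± 0.957 for Col6a1− libraries (SD, n = 3 each; exact permutation p = 0.2).

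**Figure D2:**
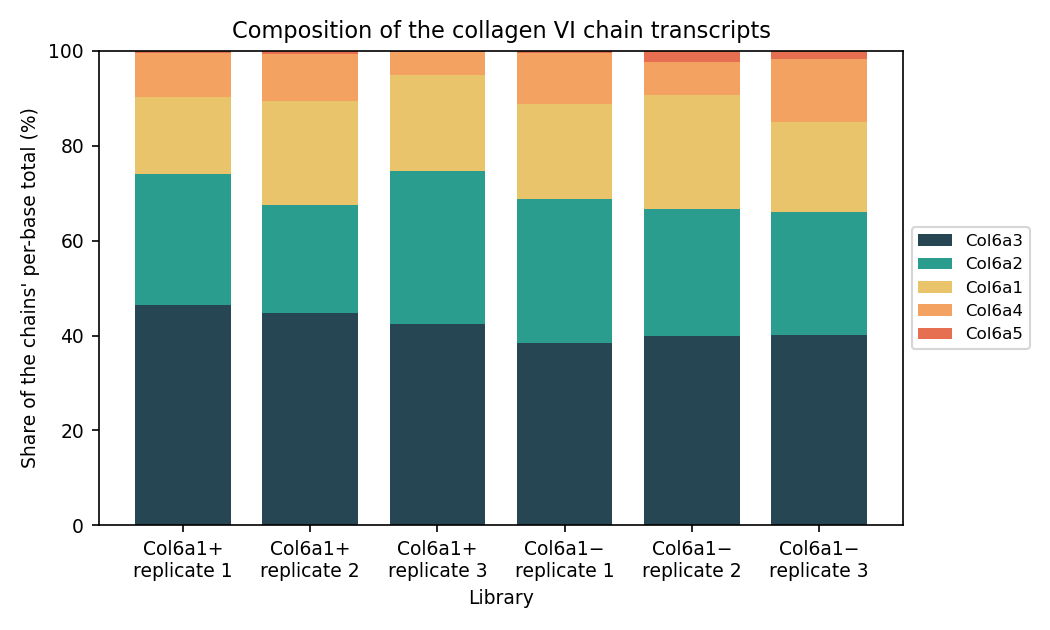
Stacked bars for the 6 libraries give each chain's share, in percent, of the summed per-base values of the collagen VI chains, with Col6a3 at the bottom and Col6a5 at the top. Col6a3 takes 42.4% to 46.4% in the Col6a1+ libraries and 38.4% to 40.2% in the Col6a1− libraries, and Col6a5 takes at most 2.45%.

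Whether the chains differed in their response was asked of the log2 ratios of the 10 pairs among the 5 measured chains, by an exact two-sided permutation test over libraries. Among Col6a1, Col6a2, Col6a3 and Col6a4 the change of the log2 ratio between groups lay between -0.29 (Col6a1 to Col6a3) and 0.55 (Col6a3 to Col6a4), with p from 0.2 to 0.7 and overlapping groups in all 6 pairs. Paired by replicate number, the ratio of Col6a1 to Col6a3 was lower in Col6a1+ CAFs in 3 of 3 pairs (exact sign-flip permutation p = 0.25, the smallest that 3 pairs allow), by less than 0.01 in replicate 3, and each of the other 5 ratios moved one way in 2 of 3 pairs (p from 0.5 to 1). The ratio of Col6a1 to Col6a2 on the log2 scale was -1.37 ± 0.39 for Col6a1+ and -1.27 ± 0.23 for Col6a1− libraries (SD, n = 3 each), a difference of -0.11 (exact permutation p = 0.7). The ratio of Col6a3 to Col6a4 was 3.55 ± 0.49 and 3.00 ± 0.48, a difference of 0.55 (exact permutation p = 0.3). Leaving out 1 library moved the first of these differences between -0.33 and 0.03 and the second between 0.27 and 0.82. The 4 pairs with Col6a5 had larger differences, from 1.39 for Col6a4 to 1.95 for Col6a3, with exact permutation p from 0.1 to 0.3. Only the ratio of Col6a3 to Col6a5 did not overlap, at 7.08, 6.86 and 8.33 in the Col6a1+ libraries and 6.62, 4.72 and 5.09 in the Col6a1− libraries. After Benjamini-Hochberg adjustment over the 10 pairs, p ran from 0.5 to 0.7, and a design of this size cannot pass 0.05; these values do not show that the chains act alike.

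Other cell types moved with the groups, and their part in the chain differences was not tested. Of 10 epithelial markers, 7 were lower and none higher in Col6a1+ CAFs, where 1.96% of all genes tested were lower, and their summed level was 5722 to 6365 normalized counts in the Col6a1+ libraries and 19976 to 33607 in the Col6a1− libraries. Cdh1, the epithelial cadherin, had 2999, 2344 and 2580 against 10493, 15452 and 11963 normalized counts, although both sorts excluded EpCAM+ cells. Epcam itself had 1074, 884 and 615 against 3107, 4129 and 3730. All 11 pericyte markers were higher in Col6a1+ CAFs (sums of 42659 to 92830 against 1166 to 2166 normalized counts), as were 7 of 8 smooth muscle markers (12647 to 25333 against 496 to 2323), 5 of 9 pan-fibroblast markers (42103 to 47005 against 8854 to 16217) and 4 of 8 telocyte markers (2784 to 4545 against 1276 to 1481). The share of all genes tested that were higher was 2.66%. Of 7 trophocyte markers, 2 were lower in Col6a1+ CAFs (341 to 552 against 1263 to 1489). The immune list (10 genes, 1 lower, 52 to 86 against 299 to 519), the endothelial list (8 genes, none called, 122 to 259 against 312 to 550) and the glial list (6 genes, none called, 56 to 73 against 29 to 77) were low. Ptprc, the gene of CD45, was at 0, 2 and 0 against 7, 8 and 3 normalized counts. The erythroid list (6 genes, none called) had sums of 110 to 1713 against 281 to 482. Hemoglobin genes were highest in replicate 3 of the Col6a1+ CAFs, where Hba-a1 had 710 and Hba-a2 726 normalized counts. In bulk samples, fewer cells of a type and less RNA per cell cannot be told apart.

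Set against the fibroblast markers of the same library, the 4 chains kept the Col6a1+ libraries above the Col6a1− libraries, by a smaller margin. The mean log2 value of the 9 pan-fibroblast markers (Pdgfra, Col1a1, Col1a2, Col3a1, Dcn, Lum, Dpt, Thy1 and Vim) was subtracted from each chain. The difference between groups was then 1.19 for Col6a1, 1.30 for Col6a2, 1.48 for Col6a3 and 0.93 for Col6a4, with no overlap in each of the 4 (exact two-sided permutation p = 0.1, the smallest this design can give; 0.125 after Benjamini-Hochberg adjustment over 5 chains). For Col6a3 the log2 ratio was 1.90, 1.32 and 2.13 in the Col6a1+ libraries and 0.09, 0.58 and 0.22 in the Col6a1− libraries. For Col6a5 the sign turned, with a difference of -0.46 and overlapping groups (exact permutation p = 0.6). With the 3 collagens left out of the marker list the differences were 1.46, 1.57, 1.75 and 1.20 for Col6a1, Col6a2, Col6a3 and Col6a4 and -0.19 for Col6a5. These differences hold for the pan-fibroblast list alone, whose median log2 fold change was 1.81. That median was 3.46 for the smooth muscle and 5.77 for the pericyte markers, above the 2.56 to 3.12 of the 4 chains. Ratios to those lists were not formed.

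**Figure D3:**
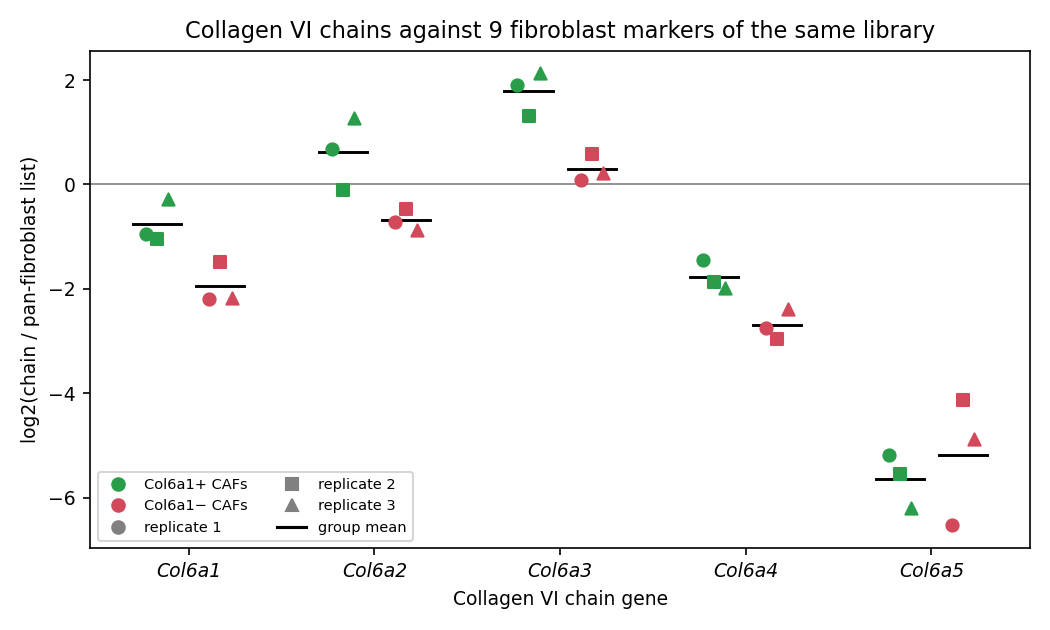
The log2 ratio of each chain to the mean of 9 pan-fibroblast markers of the same library, in green for the 3 Col6a1+ libraries and in red for the 3 Col6a1− libraries, with black lines for the group means and circles, squares and triangles for replicates 1, 2 and 3. The groups are apart for Col6a1, Col6a2, Col6a3 and Col6a4, with mean differences of 0.93 to 1.48, and overlap for Col6a5.

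Receptors of collagen VI were mostly higher in Col6a1+ CAFs: 5 of the 7 listed were higher, none was lower, and their median log2 fold change was 2.08 beside -0.27 over all genes tested. The share of all genes tested that were higher was 2.66%. In a fit of only the 13515 genes that averaged 10 or more normalized counts, 815 were higher. Cspg4, the NG2 proteoglycan, which binds collagen VI and is also a pericyte marker, had 1339, 849 and 1430 normalized counts in the Col6a1+ libraries against 17, 20 and 11 in the Col6a1− libraries (log2 fold change 6.15, SE 0.38, limma adjusted p = 0.000116). Itga1, the alpha subunit of a collagen-binding integrin, had 582, 366 and 688 against 54, 21 and 30 (log2 fold change 3.98, limma adjusted p = 0.00131). Itga10, a related alpha subunit, had 184, 89 and 110 against 13, 4 and 3 normalized counts (4.23, limma adjusted p = 0.00656). Their common partner Itgb1 had 1725, 2890 and 5387 against 834, 738 and 869 (1.88, limma adjusted p = 0.0208).

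The anthrax toxin receptors bind collagen VI and take up its chains. Antxr1 had 438, 523 and 381 normalized counts in the Col6a1+ libraries against 135, 155 and 54 in the Col6a1− libraries (log2 fold change 2.08, limma adjusted p = 0.0198). Antxr2 had 592, 366 and 200 against 270, 165 and 131, with overlapping groups (0.96, limma adjusted p = 0.318). Itga2, the remaining alpha subunit, was near 0 in both groups, at 0, 0 and 3 against 1, 4 and 9 normalized counts. With the replicate block none of the 7 passed, and without the first Col6a1− library the count was 1. With the block and the minimum mean of 10 it was 5, in a fit where 7.26% of genes were higher.

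Matrix proteins that bind collagen VI or share its microfibrils and basement membranes were higher in part: 7 of 18 listed were higher, none was lower, and the median log2 fold change of the 17 tested was 1.33. Beside this, 2.66% of all genes tested were higher. Col4a1 and Col4a2, the common basement membrane collagen chains, had 11558, 8147 and 10091 against 1818, 1818 and 785 normalized counts (log2 fold change 2.84, limma adjusted p = 0.00231) and 9608, 3858 and 10680 against 967, 782 and 327 (3.55, limma adjusted p = 0.00288). The fibrillar chains Col1a1, Col1a2 and Col3a1 were higher by 2.21, 2.50 and 1.81 on the log2 scale (limma adjusted p of 0.00538, 0.00926 and 0.0394), and Fbn1, fibrillin of elastic microfibrils, by 2.30 (0.0226). The small proteoglycans that bind collagen VI were not called. Biglycan (Bgn) had 4830, 5889 and 4267 against 1579, 3266 and 816 normalized counts without overlap (1.62, limma adjusted p = 0.0695). Decorin (Dcn) had 5834, 5694 and 5125 against 4044, 3482 and 1808, also without overlap (0.91, limma adjusted p = 0.185). Among the matrilins, which connect collagen VI to other matrix components, none passed; Matn2 had 90, 157 and 63 against 65, 124 and 26, and Matn1 was at 0. The count of 7 became 0 with the replicate block and 0 to 4 when 1 library was left out. It was 8 with the block and the minimum mean of 10, where 7.26% of genes were higher.

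Genes for collagen chain modification and folding were higher in 9 of 20, with none lower and a median log2 fold change of 1.61, beside 2.66% higher among all genes tested. P3h2, a prolyl 3-hydroxylase, had 98, 213 and 246 normalized counts in the Col6a1+ libraries against 4, 14 and 0 in the Col6a1− libraries (log2 fold change 5.36, SE 0.93, limma adjusted p = 0.0103). Fkbp10, a chaperone and prolyl isomerase of collagen, had 354, 439 and 482 against 74, 158 and 62 (2.22, limma adjusted p = 0.0118). P3h1 and Crtap, partners in a further prolyl 3-hydroxylase complex, were higher by 1.97 and 2.06 (limma adjusted p of 0.0169 and 0.0199). Serpinh1, the collagen chaperone HSP47, had 1880, 3258 and 2801 against 558, 954 and 1152 (1.60, limma adjusted p = 0.0258). P4ha1, a catalytic subunit of prolyl 4-hydroxylase, was higher by 2.02 (limma adjusted p = 0.0283), whereas its partner P4hb, also a general disulfide isomerase, had 1157, 1237 and 883 against 1324, 1153 and 838 normalized counts (-0.01, limma adjusted p = 1). Ppib, a further partner in the complex of P3h1 and Crtap, had 38, 364 and 229 against 145, 235 and 286. The count of 9 was 0 with the replicate block, 5 with a pseudocount of 0.1 and 0 to 2 when 1 library was left out. It was 11 with the block and the minimum mean of 10, where 7.26% of genes were higher.

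Of 10 genes of proteases and inhibitors that act on collagen VI or around it, 3 were higher and none was lower, with a median log2 fold change of 1.29. Among all genes tested, 2.66% were higher. Bmp1, a procollagen proteinase that can release endotrophin, had 505, 430 and 682 normalized counts in the Col6a1+ libraries against 197, 233 and 137 in the Col6a1− libraries (log2 fold change 1.51, limma adjusted p = 0.0274). Mmp9 had 3677, 844 and 1985 against 423, 147 and 473 (2.57, limma adjusted p = 0.0286), and Mmp11, which cleaves the Col6a3 chain, had 258, 113 and 156 against 49, 20 and 4 (3.26, limma adjusted p = 0.0373). Mmp14, the membrane-type protease also linked to endotrophin release, had 250, 856 and 956 against 128, 392 and 342 with overlap (1.19, limma adjusted p = 0.333). The count of 3 was 0 with the replicate block, and 0 or 1 when 1 library was left out. It was 7 with the block and the minimum mean of 10, where 7.26% of genes were higher.

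**Figure D4:**
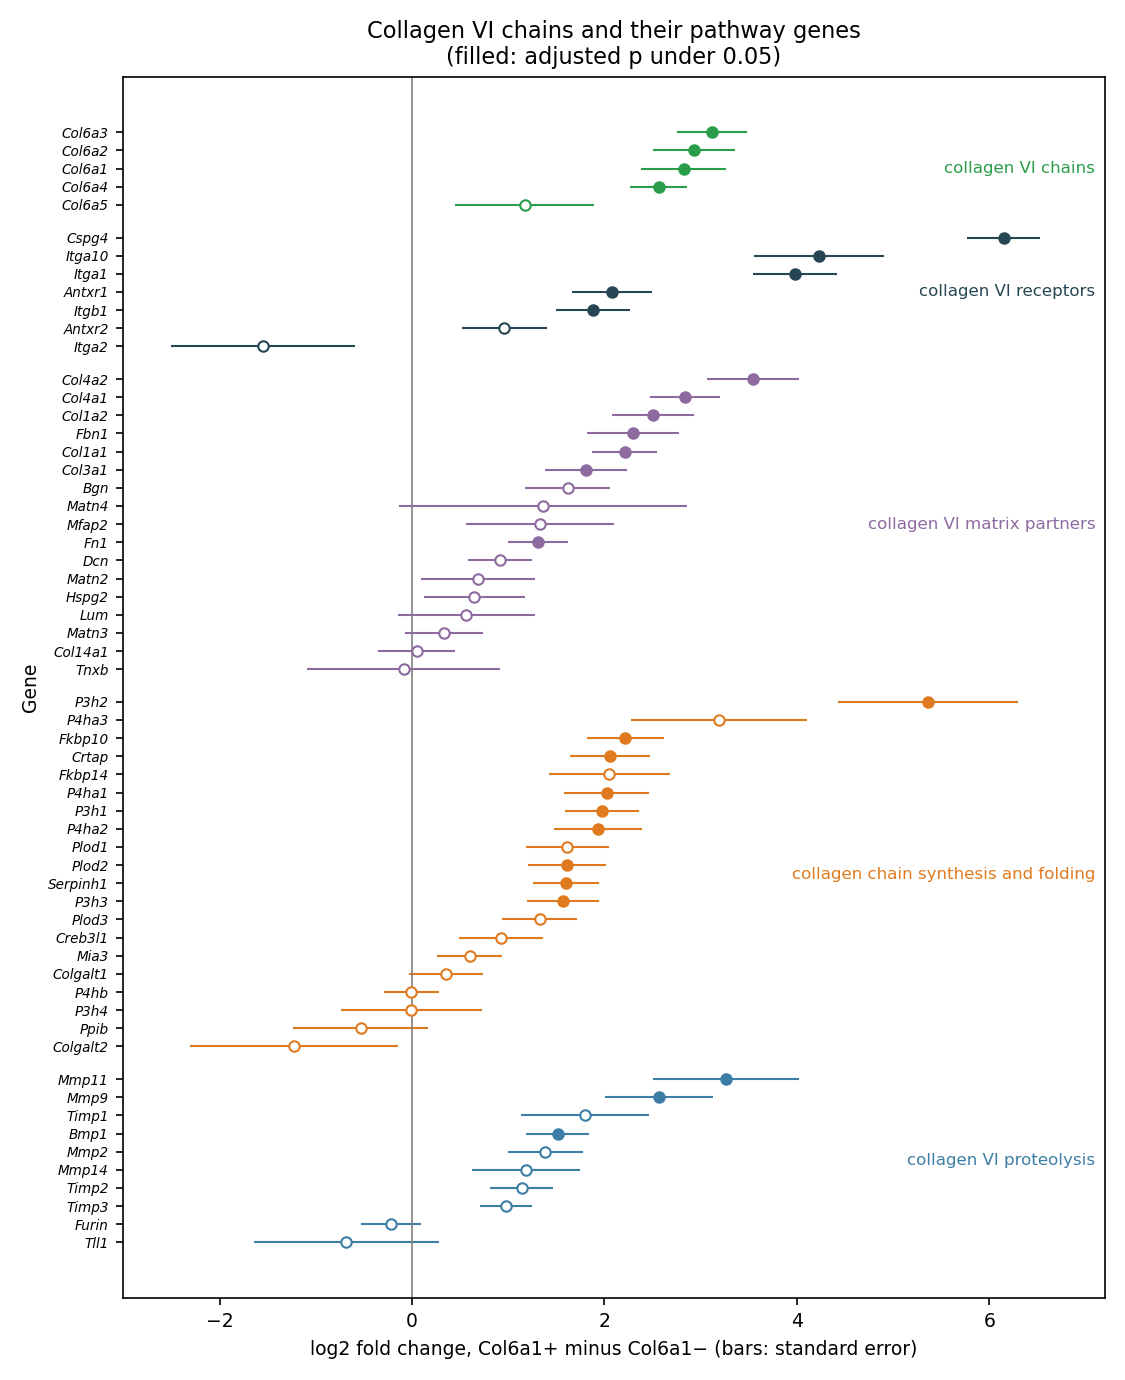
Log2 fold changes, Col6a1+ minus Col6a1− CAFs, with standard errors for the tested collagen VI chains and 4 lists of related genes, filled where the adjusted p was under 0.05. The chains called lie between 2.56 and 3.12; among the called genes of the other lists, Cspg4 (6.15), P3h2 (5.36), Itga10 (4.23), Itga1 (3.98), Col4a2 (3.55) and Mmp11 (3.26) lie above them.

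The genes whose log2 values ran most like each chain over the 6 libraries were taken from the 13514 others that averaged 10 or more normalized counts. The libraries fall into the sorted groups, so these Pearson correlations carry the difference between groups and are a description over 6 points. For Col6a1 they were Plac9a, Eva1b, Tnfrsf1a, Plac9b and Tmem176a (r from 0.995 to 0.997); Plac9a and Plac9b are near-identical genes among which reads may be split. Tnfrsf1a, the gene of TNF receptor 1, had 532, 739 and 848 against 245, 306 and 186 normalized counts. For Col6a2 they were Bmp1, Birc3, Postn, Lrrc32 and Fkbp9 (r from 0.997 to 0.998), among them periostin (Postn), a matricellular protein, with 1576, 1546 and 4653 against 236, 399 and 112. For Col6a3 they were Mfrp, C1qtnf5, Mrvi1, Birc3 and Col1a1 (r from 0.995 to 0.997); Mfrp and C1qtnf5 overlap in the genome and had almost the same counts, 630, 587 and 1120 and 630, 590 and 1124 in the Col6a1+ libraries, so they cannot be told apart. For Col6a4 they were Xpr1, Fstl1, Slc38a11, Gm13889 and Trpc1 (r from 0.995 to 0.998), and for Col6a5 they were Isoc2a, Ypel5, Clec2d, Iqsec2 and Mfsd5 (r from 0.965 to 0.985), all 5 with overlapping groups. Pearson r does not measure the size of a difference. Among the genes listed for Col6a1 to Col6a4, Eva1b, Birc3 and Xpr1 were not called. Their log2 fold changes were 1.17, 1.09 and 0.94 (limma adjusted p of 0.0654, 0.155 and 0.248). The r between chains was 0.985 for Col6a1 and Col6a2, 0.990 for Col6a1 and Col6a3, 0.992 for Col6a2 and Col6a3, 0.941 to 0.970 for Col6a4 with these 3, and 0.589 to 0.676 for Col6a5 with the other chains.

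None of the 6 nearest measured genes that are not chains passed the test. Pcbp3, the nearest measured gene above Col6a1 at 35.7 kb, had 37, 47 and 57 normalized counts in the Col6a1+ libraries against 11, 4 and 15 in the Col6a1− libraries without overlap (log2 fold change 2.26, SE 0.70, limma adjusted p = 0.108). Lss, 38.6 kb below Col6a2, had 49, 34 and 41 against 82, 48 and 84 (-0.74, limma adjusted p = 0.484). Around Col6a3, Cops8 at 153 kb and Mlph at 71.1 kb had differences of 0.53 and -1.05 on the log2 scale, short of the threshold (limma adjusted p of 0.488 and 0.301). Pik3r4, 0.152 kb below Col6a6, had 222, 148 and 141 against 121, 113 and 87 (0.65, limma adjusted p = 0.431), while Col6a6 itself was at 0. D030055H07Rik, an antisense gene 51.9 kb above Col6a4, had 0, 5 and 3 normalized counts against 0 in all Col6a1− libraries. The 5 other annotated genes inside the spans of Col6a3, Col6a4 and Col6a6 (Gm36970, Gm24631, Gm36993, RP24-294A16.4 and Gm38314) were at 0 in every library, so none of them held counts that might belong to a chain.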

How the data were processed

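RNA of sorted GFP+ and Tomato+ cells was read by 3′ mRNA sequencing (QuantSeq, Ion Proton), 3 libraries per group. The authors aligned reads to mm10 with TopHat2 and Bowtie2, summed them per gene and normalized them. The paper names DESeq, run through metaseqr, for its differential expression analysis and does not name the normalization method. Whether strand was used in counting is not given in the sources used here. The deposited table holds log2 values of the normalized count plus 1, and 100% of 2 to that power minus 1 were whole within 1e-06. A further deposited set of columns holds a per-base signal, the normalized count divided by a gene-model length. Columns of the authors' own fold changes and p-values were not used. Normalized counts summed to 3039152 to 3425249 per library. These sums carry the scaling and are not read numbers, so the sequencing depth is unknown. The upper limit given for Col6a6 covers counting error only. The intervals of the fold changes rest on the limma standard errors, and so on the spread between libraries. The first Col6a1+ library had 14530 genes with counts and the others 18770 to 20511.

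Genes with a summed normalized count of at least 1 (26402) were tested with limma 3.58.1 (R 4.3.3; trended empirical Bayes, no covariates, Benjamini-Hochberg), since the values are normalized and not raw counts. Calls had an adjusted p under 0.05. The fit was run on simulated counts, where 174 of 200 genes changed 8-fold were called in the right direction and 1 unchanged gene was called. The simulation gave all genes the same dispersion and had no effects of single libraries, so it does not test the calls made here. Chain ratios were tested by exact permutation over libraries (SciPy 1.17.1). Libraries were paired by the replicate numbers of the labels, which do not say that same-numbered libraries share a pool of tumors. Deviations from group means correlated at 0.245, 0.125 and 0.144 over 13515 genes for same-numbered libraries, and at -0.245 to 0.150 for different numbers. These values overlap, so the pairing is an assumption of the replicate block and the sign-flip tests. Alternatives were library-size scaling, filters on the mean or every library of 10, a pseudocount of 0.1, limma-voom, the replicate block, array weights and leaving out each library, with the filter applied again to the libraries kept.

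The chains and all lists were chosen with earlier results of these data known. Named genes were the 6 chains, up to 6 called genes per list by adjusted p with defining members that were not called, the 5 genes most correlated with each chain, and overlapping or flanking genes. The ratio to the fibroblast list was added after seeing the data. Promoters are from RefSeq (GRCm38.p6) and gene models from GENCODE M21.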

Additional observations from a re-analysis of the deposited data

How the results depend on the processing

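The direction of the fold change of Col6a1, Col6a2, Col6a3, Col6a4 and Col6a5 was the same under all alternatives run. Genes called numbered 2000 with array quality weights, 1852 with the replicate block and a mean of at least 10, 0 with the replicate block alone (4418 at an unadjusted p under 0.05) and 12 to 895 without 1 library, against 1220. The fit without the first Col6a1− library gave the 12. With the replicate block, the chains called went from 4 to 0, at unchanged log2 fold changes of 2.82, 2.93, 3.12 and 2.56 for Col6a1, Col6a2, Col6a3 and Col6a4, and receptors, matrix partners, folding genes and proteolysis genes called went to 0 each. Without 1 library, 0 to 4 chains were called, fewest without the first Col6a1− library (0) and the third Col6a1− library (2), and log2 fold changes ran from 2.41 to 3.23 for Col6a1, 2.54 to 3.21 for Col6a2, 2.79 to 3.43 for Col6a3 2.42 to 2.66 for Col6a4 and 0.616 to 1.87 for Col6a5; receptors called ran from 1 to 4, matrix partners from 0 to 4, folding genes from 0 to 2 and proteolysis genes from 0 to 1. Folding genes called were 5 with a pseudocount of 0.1. Proteolysis genes called were 6 with array quality weights, 5 with limma-voom, 5 with at least 10 in every library and 7 with the replicate block and a mean of at least 10. The change of the log2 ratio reversed in 3 chain pairs when 1 library was left out, between -0.329 and 0.0286 for Col6a1 to Col6a2, -0.0875 and 0.620 for Col6a1 to Col6a4, and -0.0697 and 0.678 for Col6a2 to Col6a4. Within pairs of libraries the exact sign-flip test of the ratios cannot go below p = 0.25. Col6a5 has no value where at least 10 was required in every library. The cause of these changes was not tested. A difference in Col6a5 was not detected, which does not show that it is absent.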
